A study of Mus musculus with 3 samples.

Results

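The integrin subunits and laminin chains were followed in mouse embryonic fibroblasts (MEF cells) cultured with n-butylidenephthalide (BP), a phthalide from the root of Angelica sinensis. Every oligo whose gene name in the scanner output is an integrin alpha or beta subunit (Itga or Itgb with a number or a letter) or a laminin chain (Lama, Lamb or Lamc with a number) was taken. The rule used names and no measured value, but earlier results of these data were known when it was set. This gave 38 genes, 27 integrins and 11 laminins, of the 35527 gene names on the array, read by 52 of 55681 oligos. A value on all 3 arrays was obtained for 37 of the 38 genes. MEF cells are primary fibroblasts grown from minced mid-gestation embryos of C57BL/6 mice after the heads, legs and internal organs were taken off. The control cells received no treatment by their label, whereas the study describes them as given the solvent DMSO; the other cultures received BP at 10 µg/ml (BP10) or 40 µg/ml (BP40) in the same medium. Total RNA was labeled with Cy3 and hybridized to an Agilent mouse array of 60-base oligos, 1 array per condition. The study used these arrays to ask which gene groups BP deregulates in MEF cells, and extracellular matrix-receptor interaction was among the groups it considered.

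Integrins are pairs of an alpha and a beta subunit that span the plasma membrane, hold the cell to its matrix and pass signals in both directions. Laminins are trimers of an alpha, a beta and a gamma chain that assemble into the basement membrane and are themselves integrin ligands. Fibroblasts are known for integrins that bind fibronectin and collagen, whereas several other subunits belong mainly to leukocytes, platelets or epithelia. The beta subunit joins talin and kindlin inside the cell, which switch the receptor to its active form.

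With 1 array per condition there was no spread between cultures and no p-value, and each ratio compares 2 arrays. The signal of each oligo is given as log2 of its deposited intensity minus the 75th percentile of that array, so that 0 is the level below which 75% of the gene spots lie. Where 3 signals are listed, they stand in the order control, BP10 and BP40. A gene was called up-regulated or down-regulated at a ratio of at least 2-fold, a log2 ratio of 1, provided that 1 or both arrays had its oligo well above background. Where only 1 of them was above background, the ratio is a bound on its size. It is taken against the lowest signal that counts as well above background on the dim array, or the dim signal itself where that is higher. Dim spots can lie above that lowest signal, so the bounds are nominal. Over 4768 genes read by 2 oligos, the median SD of the log2 ratio between both oligos was 0.29 (BP10 to control), 0.22 (BP40 to control) and 0.21 (BP40 to BP10). The control array was scanned in another session than both BP arrays, and its spots lack a correction for uneven signal over the array surface (detrending) that both BP arrays received. Scan session and BP cannot be told apart where the control enters, while BP40 and BP10 share a session. More gene spots were well above background on the control array (81.7%) than on BP10 (68.3%) or BP40 (69.1%).

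Most integrin and laminin genes were measurable in MEF cells and stayed within 2-fold under BP. Of the 37 genes, 29 were well above background on each of the 3 arrays, and Itgax, Itgb2l and Itgb8 were so on none (3 genes). At BP10, 4 of 37 were down-regulated, Itgae, Itgal, Itgb6 and Lamc3, and 0 were up-regulated. That is 10.8% of the members, against 12.9% of all 35287 genes called in either direction, 10.3% lower and 2.6% higher. At BP40, 5 of 37 were down-regulated, the same 4 and Itga4, and 0 were up-regulated, which is 13.5% beside 11.5% of all genes called in either direction, 9.02% lower and 2.5% higher. Among the 29 members above background on each array, 2 were called at BP10, 3 at BP40 and 1 between the doses, and among all such genes the shares called were 12.8%, 11.7% and 3.31%. Over all 37 members the share called was thus near that of all genes at both doses. With quantile normalization, 50.8% of the BP10 calls over all genes were higher than control, in place of 20.2%, and 54.4% of the BP40 calls, in place of 21.7%, while 3 members were called at each dose, all lower. The 4 genes called lower at both doses make 10.8% of the members, and 6.27% of all genes were called lower at both doses. Among the 4, the Itgal call is not shared by its other oligos, as given below. Both doses were set against the same control array. The median log2 ratio of the 26 integrin genes was -0.11 at BP10 and -0.21 at BP40, that of the 11 laminin genes was -0.02 and -0.24, and that of all genes was -0.23 and -0.11. At BP10 both family medians took either sign over the alternative processings, from -0.13 to 0.11 for integrins and from -0.16 to 0.10 for laminins. The plot of signals by gene shows the 3 arrays close together for most members. The down-regulated genes are exceptions, and so are the uncalled Itgad, Itga2, Itgb2l and Itgb8, which were not above background on every array.

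**Figure D1:**
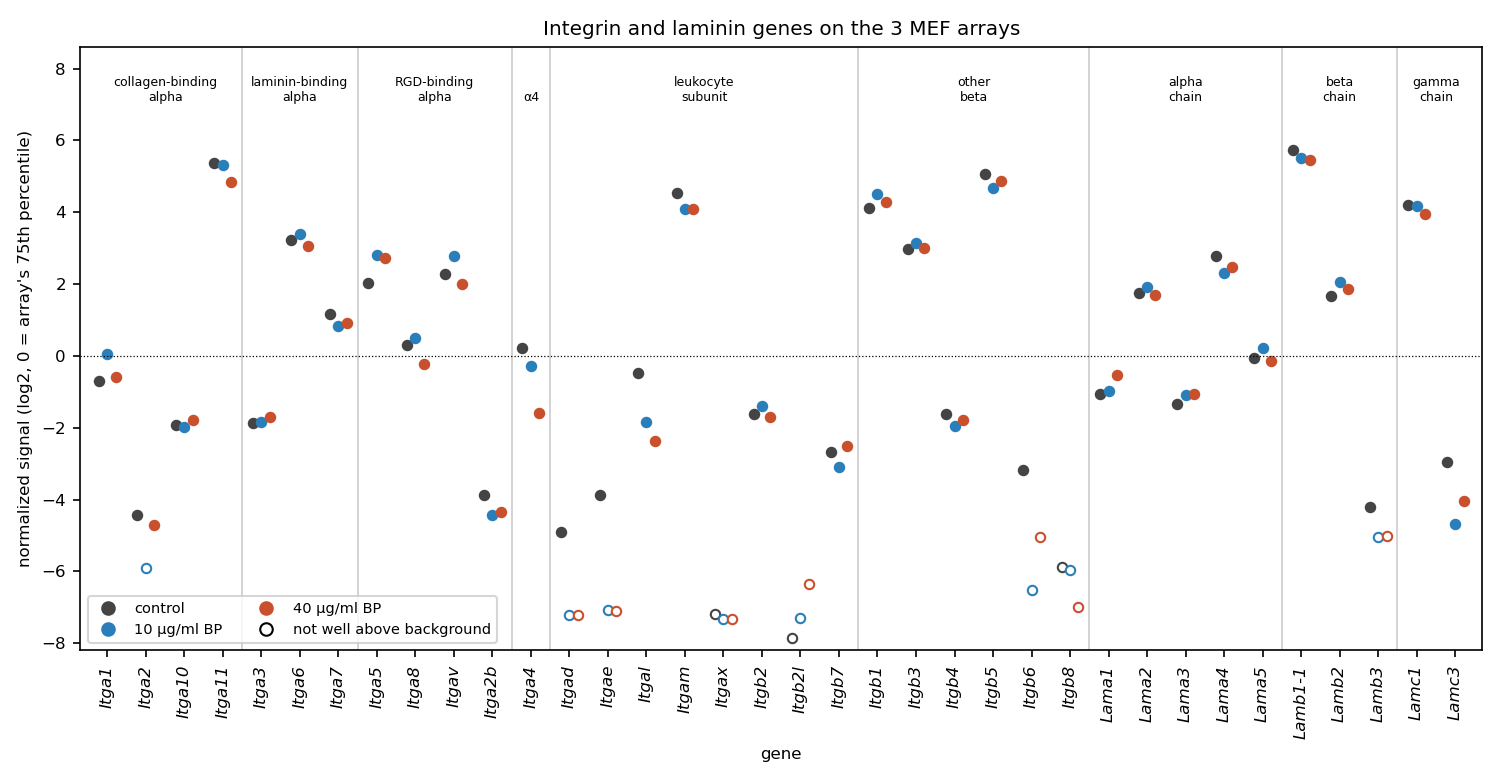
Normalized signal (log2, 0 is the 75th percentile of the array) of the oligo that stands for each of 36 integrin and laminin genes, grouped by subunit class, on the control (grey), BP10 (blue) and BP40 (orange) arrays. Open points are not well above background, and 28 genes have filled points on all 3 arrays. The oligos drawn for Itgae, Itgal, Itgb6 and Lamc3 drop by more than 2-fold at both doses, and that of Itga4 at BP40 only. Other Itgal oligos, not drawn here, rise.

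Itga4 gave the only call among the members between the 2 doses. It encodes the integrin subunit that binds fibronectin and VCAM-1, with Itgb1 or Itgb7 as its partner. Its log2 signal was 0.22 without BP, -0.27 with BP10 and -1.60 with BP40, from deposited intensities of 2030, 1160 and 401. The signal was thus lower on BP10 than on the control and lowest on BP40, and well above background on each. The log2 ratio was -0.49 at BP10, within 2-fold, and -1.82 at BP40, a 3.52-fold decrease. Against BP10, the log2 ratio of BP40 was -1.32, and Itga4 was the 1 of 37 members called in this comparison, in which 3.65% of all genes were called, 1.88% higher and 1.78% lower. Over the alternative processings that moved it, its log2 ratio lay between -2.06 and -1.59 for BP40 against control and between -1.81 and -1.17 for BP40 against BP10, past 2-fold each time. The values -2.06 and -1.81 came from the median over its oligos. That median takes in a second oligo that was not above background on BP10 or BP40. Without that setting the lowest were -1.89 and -1.41. Among the genes of like brightness on these arrays, 3.34% were called for BP40 against BP10.

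Itga4 is read by 2 oligos, whose first 30 of 60 bases are shown because only 1 of them carries the result. The oligo used lies at chr2:79173193-79173252 (mm9, plus strand). The other starts and ends at chr2:79153985-79155115, so its 60 bases are split by a gap in the genome. Exon and untranslated positions in mm9 were not assigned here.
Itga4, oligo used: gtgtgtggaatgcattataaagatctaaca
Itga4, other oligo: taagatcttagacctggaagagaaacaaat
The other oligo gave -5.01 without BP, -5.01 with BP10 and -7.30 with BP40, and only the first of these was well above background. It bounds no change at 2-fold, so the Itga4 result rests on 1 oligo.

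The gene of the Itga4 subunit's relative Itga9 has a usable value on only 2 arrays. Its spot on BP10 was marked as an outlier by the scanner software. Its log2 signal was -0.64 on the control array and -1.38 on BP40, a log2 ratio of -0.74 that was within 2-fold. Itgb7, the partner beta subunit in lymphocytes, stood at -2.68, -3.10 and -2.51 and was not called.

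The receptors for fibronectin and vitronectin, which recognize the RGD sequence, were well above background on all 3 arrays. Itga5, the alpha subunit of the main fibronectin receptor, was the member with the largest positive ratio among those above background on all 3 arrays at both doses, without reaching 2-fold. Its log2 signal was 2.03 without BP, 2.82 with BP10 and 2.71 with BP40, which is 1.73-fold higher at BP10 and 1.61-fold higher at BP40. Over the alternative processings the log2 ratio of Itga5 stayed between 0.74 and 0.89 at BP10 and between 0.60 and 0.79 at BP40. Itgav, the alpha subunit of vitronectin receptors, stood at 2.29, 2.78 and 2.01, so that it was higher than control on BP10 (log2 ratio 0.49) and lower on BP40 (-0.28). Itga8, which binds nephronectin, followed the same order at 0.30, 0.51 and -0.22. Over the alternative processings the log2 ratio of Itga8 at BP10 took either sign, from -0.06 to 0.25, while that of Itgav stayed above 0. Neither gene reached 2-fold in any comparison. Both alpha subunits lay lower on BP40 than on BP10, by a log2 ratio of -0.77 for Itgav and -0.73 for Itga8. A second Itgav oligo, well above background on all 3 arrays, gave 0.32 at BP10, 0.02 at BP40 and -0.29 between the doses, so the size of the last and the sign at BP40 depend on the oligo. Itga2b, the alpha subunit of the platelet fibrinogen receptor, was dim at -3.87, -4.42 and -4.35. Of 7 megakaryocyte and platelet markers, 4 were above background on all 3 arrays, and the summed linear signal in units of the 75th percentile was 6.92 without BP, 3.49 with BP10 and 3.32 with BP40. The part of such cells in the Itga2b signal was not tested.

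The common beta subunits stayed within 2-fold at both doses. Itgb1, the partner of most alpha subunits, had log2 signals of 4.11, 4.52 and 4.29 on the control, BP10 and BP40 arrays. Itgb3, a partner of Itgav, had 2.97 on the control array and log2 ratios of 0.17 and 0.02 at BP10 and BP40. Itgb5, another partner of Itgav, had 5.05, 4.67 and 4.87. All 3 genes had log2 ratios between -0.38 and 0.41, and log2 ratios between the doses from -0.23 to 0.20. For Itgb1, whose 2 oligos are both well above background, the log2 ratios were 0.44 and 0.41 at BP10, -0.03 and 0.17 at BP40, and -0.47 and -0.23 between the doses. A second Itgb3 oligo, at -1.96 on the control array, gave 0.01 at BP10 and -0.12 at BP40.

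Itgb6 and Itgb8 encode the epithelial and neural beta subunits that, paired with Itgav, release active TGF-beta. Itgb8 was not above background on any array. Itgb6 had a log2 signal of -3.17 without BP, -6.52 with BP10 and -5.06 with BP40, from intensities of 194, 15.2 and 36.5. Only the control array showed it above background. It was thus at least 3.72-fold lower at BP10 and at least 3.69-fold lower at BP40. A second Itgb6 oligo was above background on none of the arrays. The oligo used covers chr2:60492788-60492847 and the second has its ends at chr2:60438632-60443247 (mm9, minus strand); their first 30 bases are shown because the call depends on which is read.
Itgb6, oligo used: tctgcttacctacatttggattcaagcaca
Itgb6, second oligo: aaggaagttgctaaatttgaagcagaacgc
Of all genes as dim as Itgb6, 18.1% were called at BP10 and 16.3% at BP40. With the normexp background correction its calls were lost at both doses (log2 ratios -1.27, dim on BP10, and -0.73). Of 10 epithelial markers, 8 were above background on each array, with a summed linear signal of 9.14 without BP, 10.2 with BP10 and 8.50 with BP40, while Cdh1 and Epcam were above background on none.

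Promoters were examined for Itga4 and Itgb6, both down-regulated at BP40 and both on chromosome 2. Lamc3, also down-regulated at BP40 and on chromosome 2, has no promoter printed here. The sequences are RefSeq's, in GRCm38.p6, with 250 bases before and 50 after each start site read along the gene. Of the 38 member genes, 24 matched the promoter table, with 27 start sites. Searched on both strands were the GC box (GGGCGG), the CCAAT box (CCAAT), the TATA box (TATAAA) and an AP-1 site (TGANTCA). An extended ETS motif (GAGGAA) was searched too, but not GGAA alone. Capitals mark each match, and no match of 1 motif overlapped that of another in these sequences.
Itga4, chr2:79255176-79255475, plus strand: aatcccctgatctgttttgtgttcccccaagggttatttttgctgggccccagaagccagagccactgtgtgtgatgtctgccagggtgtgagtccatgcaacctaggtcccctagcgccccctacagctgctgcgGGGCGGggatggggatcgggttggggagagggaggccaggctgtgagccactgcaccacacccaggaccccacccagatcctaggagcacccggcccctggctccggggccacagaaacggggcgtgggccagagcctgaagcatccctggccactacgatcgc
Itgb6, chr2:60722554-60722853, minus strand: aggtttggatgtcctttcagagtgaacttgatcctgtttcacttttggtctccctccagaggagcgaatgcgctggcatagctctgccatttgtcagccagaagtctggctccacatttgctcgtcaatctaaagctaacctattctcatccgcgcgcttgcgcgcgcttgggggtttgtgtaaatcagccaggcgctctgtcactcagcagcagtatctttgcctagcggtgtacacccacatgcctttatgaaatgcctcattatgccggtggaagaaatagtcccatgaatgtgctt
Itgb6, chr2:60673644-60673943, minus strand: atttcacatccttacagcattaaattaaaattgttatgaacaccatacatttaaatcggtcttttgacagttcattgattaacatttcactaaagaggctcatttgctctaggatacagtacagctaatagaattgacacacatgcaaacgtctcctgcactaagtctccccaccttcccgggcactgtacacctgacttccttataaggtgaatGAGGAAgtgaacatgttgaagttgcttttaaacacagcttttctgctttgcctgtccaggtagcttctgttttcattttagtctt
The Itga4 promoter holds 1 GC box, which 35.7% of all 32851 promoters hold, and the promoters of the 27 member start sites hold in 44.4%. The first Itgb6 start site has 0 matches to any of these motifs, and the second holds 1 extended ETS motif. That motif was found in 28.3% of all promoters and in 15 of the 27 member promoters. TATAAA was found in 0 of the 27 member promoters and in 13.6% of all. A CCAAT box was found in 4 of the 27 and in 37.4% of all promoters, and an AP-1 site in 3 of the 27 and in 7.81% of all. These letters describe the windows and say nothing of binding in MEF cells.

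The collagen receptors gave no call. Itga11, the fibroblast receptor for interstitial collagen, had log2 signals of 5.36 without BP, 5.31 with BP10 and 4.83 with BP40, and its ratios stayed within 2-fold. Itga1 had -0.70, 0.05 and -0.60, higher on BP10 alone (log2 ratio 0.75), but its second oligo, above background on all 3 arrays, gave a log2 ratio of -0.01 at BP10. At BP40 it gave -0.52, beside 0.10 for the first. The Itga1 difference at BP10 was thus not shared by both its oligos. Itga10, a cartilage collagen receptor, stood at -1.92, -1.98 and -1.79, and its other oligo, also above background on all 3 arrays, gave log2 ratios of 0.45 and 0.43 in place of -0.05 and 0.13. Itga2 stood at -4.44 and -4.72 on the control and BP40 arrays and was not above background on BP10.

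The laminin receptors showed no call. Itga6, the alpha subunit that pairs with Itgb1 or Itgb4, had log2 signals of 3.23, 3.40 and 3.05 on the control, BP10 and BP40 arrays. The 2 Itga6 oligos gave log2 ratios of 0.16 and 0.17 at BP10, and of -0.18 and -0.08 at BP40. Itga7, the laminin receptor of muscle, had 1.16, 0.85 and 0.91. Itga3 had -1.86, -1.85 and -1.69, and Itgb4, the hemidesmosome subunit, had -1.62, -1.96 and -1.78. The log2 ratios of these 4 genes to the control lay between -0.34 and 0.16. Of 8 skeletal muscle markers, 7 were above background without BP, 6 with BP10 and 5 with BP40, at summed linear signals of 15.6, 15.7 and 17.2. Most of each sum came from Acta1 (log2 signals 3.89, 3.89 and 4.04). Myod1 was dimmer (-2.29, -2.69 and -2.93), and Myf5 was above background on no array.

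**Figure D2:**
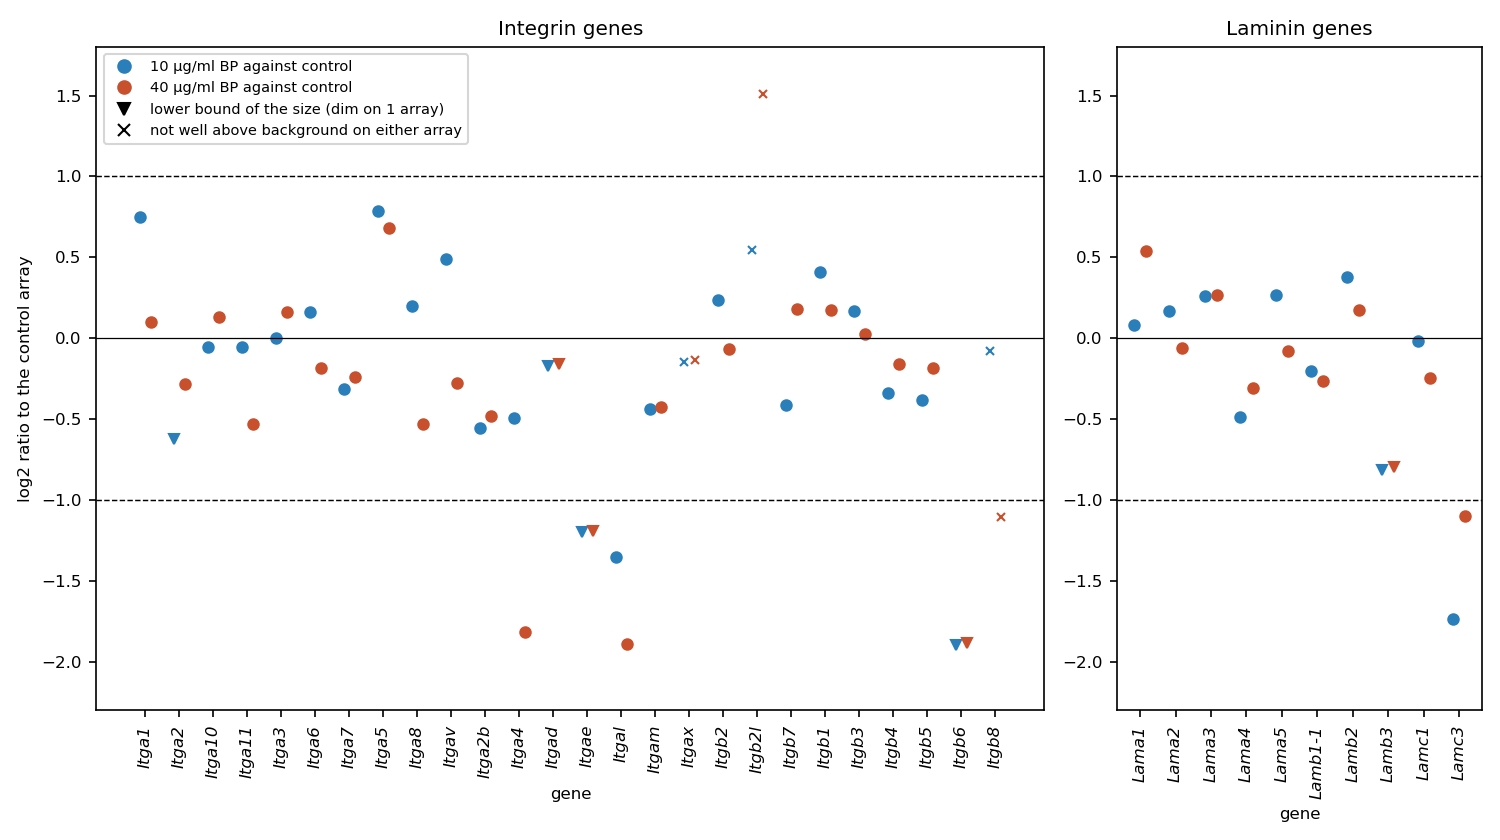
Log2 ratio of BP10 (blue) and BP40 (orange) to the control array for 26 integrin and 10 laminin genes, with dashed lines at 2-fold. Circles are measured ratios, triangles are bounds where the oligo is dim on 1 array, and crosses are dim on both arrays; only Itga4, Itgae, Itgal, Itgb6 and Lamc3 have a circle or triangle beyond a dashed line, all of them below.

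The leukocyte subunits gave the most divided picture. Of the 8 genes of this class, 4 were above background on all 3 arrays (Itgal, Itgam, Itgb2 and Itgb7), Itgad and Itgae on the control array only, and Itgax and Itgb2l on none. Itgal encodes the alpha subunit of LFA-1, which binds ICAM proteins. The oligo that stood for Itgal had a log2 signal of -0.48 without BP, -1.84 with BP10 and -2.38 with BP40, a 2.56-fold and a 3.71-fold decrease. The 2 other Itgal oligos ran the opposite way. One gave -4.60, -4.08 and -4.16, log2 ratios of 0.52 and 0.44, and the other gave -2.93, -2.15 and -1.88, log2 ratios of 0.78 and 1.05. All 3 oligos were well above background on each array, so the direction of Itgal depends on the oligo read. The 3 starts are printed because they separate the readings. The first oligo lies at chr7:134474710-134474767 and is listed under a cDNA record, and its gene name is absent from the older annotation in the control array's file. The others lie at chr7:134477064-134477123 and chr7:134477160-134477219 (all mm9, plus strand) and are listed under the RefSeq transcript.
Itgal, cDNA oligo, lower with BP: gtcccactgctctgtcttttattaacaatg
Itgal, RefSeq oligo, log2 ratios 0.52 and 0.44: tggggaagagaccaaagatatgggctgtct
Itgal, RefSeq oligo, log2 ratios 0.78 and 1.05: acttgagagccctggctctgaccagcttca
With the median over the 3 oligos, Itgal had log2 ratios of 0.52 (BP10) and 0.44 (BP40), and its call as down-regulated does not hold across its oligos. The detrending surface that was not applied to the control array stood at 0.23 (log2) under the first oligo, and with it applied the log2 ratio was -1.13 at BP10 and -1.67 at BP40.

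Itgam encodes the alpha subunit of Mac-1, a receptor of macrophages and neutrophils. The oligo that stood for Itgam had log2 signals of 4.52, 4.08 and 4.10 on the control, BP10 and BP40 arrays, from intensities of 40149, 23785 and 20826. The 2 other oligos had -1.85, -2.95 and -2.52, and -2.26, -2.97 and -2.97. Their intensities were between 155 and 483. The log2 ratios to the control were -0.44 and -0.42 for the first oligo, -1.09 and -0.67 for the next, and -0.71 and -0.70 for the last, so all 3 ran the same way and 1 was past 2-fold at BP10. The sequences are shown because the first oligo opens with a dinucleotide repeat, set in capitals. It lies at chr7:135261755-135261814, and the others at chr7:135212140-135212199 and chr7:135260275-135260334 (mm9, plus strand).
Itgam, repeat oligo: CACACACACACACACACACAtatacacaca
Itgam, second oligo: tgttaaccagacaggtgccctctaccagtg
Itgam, last oligo: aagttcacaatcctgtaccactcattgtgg
The run of CA repeats in that oligo is 20 bases long, and no other of the 52 member oligos holds one longer than 8 bases. The array carries 76 oligos with a CA or TG repeat of at least 20 bases. All 76 were above background on all 3 arrays and 98.7% of them stood at 0 or above on the control array, against 63.9% and 24.1% of all 55126 oligos. The part of other RNAs in the signal of the Itgam repeat oligo was not tested. With such oligos left out, Itgam was read by the second oligo and called at BP10 (log2 ratio -1.09), which made 5 of 37 members down-regulated.

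Itgae, the alpha subunit of the E-cadherin receptor of mucosal lymphocytes, had log2 signals of -3.87, -7.06 and -7.11, and only the control array showed it above background. It was at least 2.30-fold lower at BP10 and at least 2.28-fold lower at BP40. Its intensity on the control array was 120. Both Itgae calls were lost with quantile normalization, with the brightness trend subtracted and with normexp. With normexp the log2 ratios were -0.89 and -0.82. With the trend subtracted the measured ratios were still -2.18 and -2.46, and with quantile normalization -2.63 at BP40, but the bounds on them fell under 2-fold. Itgad, at -4.89, -7.21 and -7.21, was above background on the control array too, but its bound was only 1.13-fold at BP10 and it was not called. Itgb2, the shared beta subunit of LFA-1 and Mac-1, stood at -1.62, -1.38 and -1.69 and was not called. Of 11 leukocyte markers, 11 were above background on all 3 arrays, with a summed linear signal of 16.4 without BP, 13.8 with BP10 and 17.3 with BP40. Ptprc, the pan-leukocyte phosphatase CD45, had log2 signals of -2.52, -2.82 and -3.01, and Csf1r, the macrophage growth factor receptor, 2.59, 2.29 and 2.89. The markers did not move together: at each dose 7 of the 11 had a log2 ratio below 0 and 4 above. Cd68 (0.13 and 0.25) and Tyrobp (0.36 and 0.52) were among those higher at both doses. Cd3e was the 1 marker called at BP10, lower (log2 ratio -1.10), and 0 were called at BP40. Laptm5 was the 1 called between the doses, lower on BP40 than on BP10 (-1.08). In a bulk culture, fewer cells of a type and less RNA per cell cannot be told apart, and the part of leukocytes in these subunits was not tested.

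**Figure D3:**
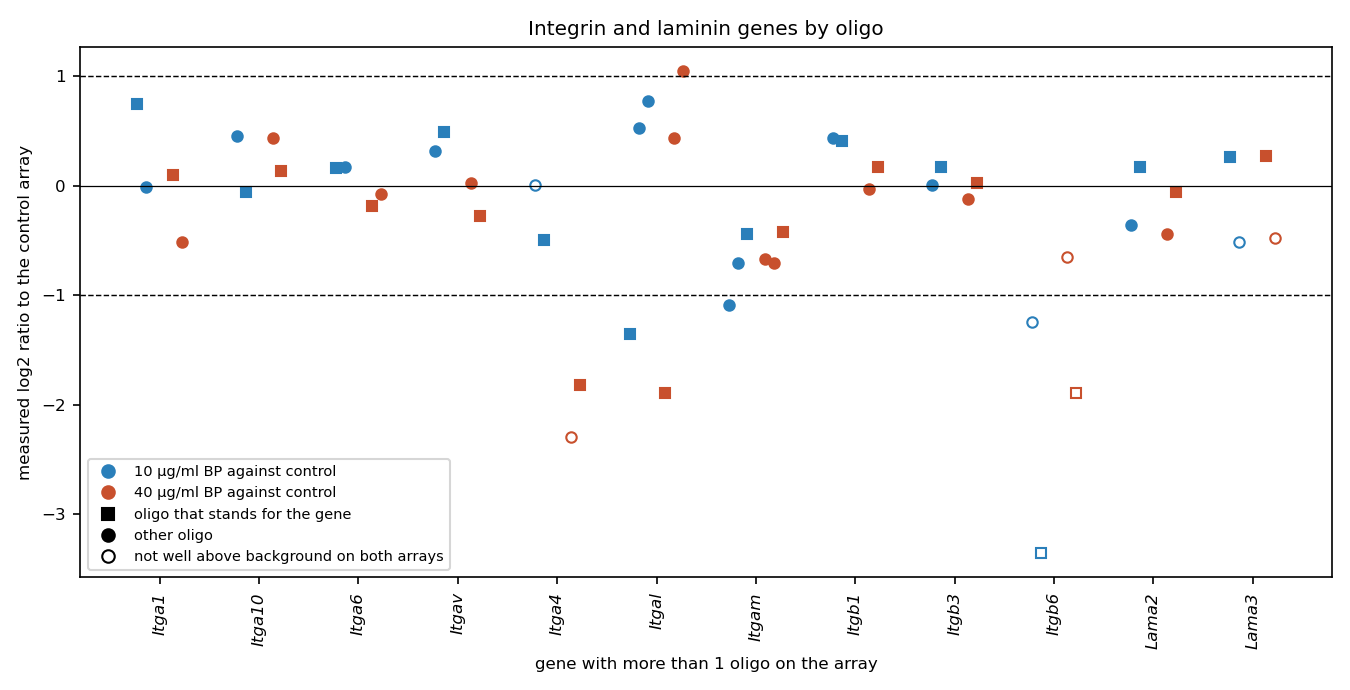
Measured log2 ratio to the control array of every oligo of the 12 member genes that have more than 1 oligo with a value, for BP10 (blue) and BP40 (orange). Squares are the oligo that stands for the gene, open symbols are not above background on both arrays, and the 3 Itgal oligos lie on both sides of 0, at -1.89, 0.44 and 1.05 for BP40.

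Most laminin chains kept their level with BP. Of the 11 chains, 10 were above background on all 3 arrays, and Lamb3 on the control array only. Lamb1-1 is the array's name for Lamb1, the beta chain of most laminins. It had log2 signals of 5.72 without BP, 5.52 with BP10 and 5.45 with BP40. Lamc1, the gamma chain shared by most laminins, had 4.19, 4.17 and 3.95. Lama4, the alpha chain of vessels and mesenchyme, had 2.79, 2.30 and 2.48, and was lower on both BP arrays by a log2 ratio of -0.49 and -0.31. Lama2, the alpha chain of muscle and nerve basement membranes, had 1.75, 1.92 and 1.69, and Lamb2 had 1.68, 2.06 and 1.85. A second Lama2 oligo, at 1.51, 1.15 and 1.07, gave log2 ratios of -0.36 and -0.44 in place of 0.17 and -0.06, so the direction of Lama2 at BP10 depends on the oligo. The log2 ratios of these 5 genes to the control lay between -0.49 and 0.38, and none was called. Lama1, the early embryonic alpha chain, stood at -1.07, -0.98 and -0.53. Lama5, the broadly used alpha chain, stood at -0.05, 0.22 and -0.13, and Lama3, the epithelial alpha chain, at -1.34, -1.08 and -1.07.

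Lamc3 was the 1 laminin chain called. It encodes a gamma chain of restricted distribution. Its log2 signal was -2.95 without BP, -4.68 with BP10 and -4.04 with BP40, from intensities of 226, 54.7 and 73.7, with the oligo well above background on each. The control array was the high one, and BP10 was lower than BP40. Lamc3 was 3.33-fold lower at BP10 and 2.14-fold lower at BP40. Of all genes of its brightness, 33.3% were called at BP10 and 30.8% at BP40. At BP40 the log2 ratio was -1.10, and it lay under 2-fold with quantile normalization (-0.72), with the normexp background correction (-0.46) and with the brightness trend subtracted (-0.61). At BP10 it lay under 2-fold with normexp only (-0.92). Lamb3, an epithelial beta chain, was not called. It was dim with BP, and its measured ratios were 1.76-fold lower at BP10 and 1.74-fold lower at BP40. The starts of the single Lamc3 and Itgae oligos are given because both calls rest on 1 oligo of low signal, at chr2:31801996-31802055 and with ends at chr11:72945236-72946221 (mm9, plus strand).
Lamc3, only oligo: ccccaggtcccagaggaactgattgtgatt
Itgae, only oligo: ataggacagcagatatcactgtgaccatct

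Between the BP arrays, which share a scan session and a processing, the brighter integrins and laminins lay mostly lower at 40 µg/ml. Of the 17 members at 0 or above on the control array, 13 were lower on BP40 than on BP10, with a median log2 ratio of -0.21. Of all 11060 genes at 0 or above on the control array, 31.3% were lower on BP40 than on BP10, with a median of 0.16. Among these members, 8 of 11 integrins and 5 of 6 laminins were lower. The members that were not lower were Itgb5 (log2 ratio 0.20), Lama4 (0.18), Itga7 (0.07) and Itgam (0.02). The largest differences after Itga4, by the oligo that stands for each gene, were those of Itgav (-0.77, and -0.29 by its other oligo), Itga8 (-0.73), Itga11 (-0.47) and Itga6 (-0.34). Itga1, just below 0 on the control array, had -0.65. Each of these was below 2-fold, and with 1 array per dose there is no test of the group. Against the control, no bright member was called at BP10, and 1 of 17 was called at BP40, Itga4. Among all genes at this level, 2.93% were called at BP10 and 2.31% at BP40. The plot of BP40 against BP10 shows the purple and orange points to the right of 0 mostly under the median line of all genes.

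**Figure D4:**
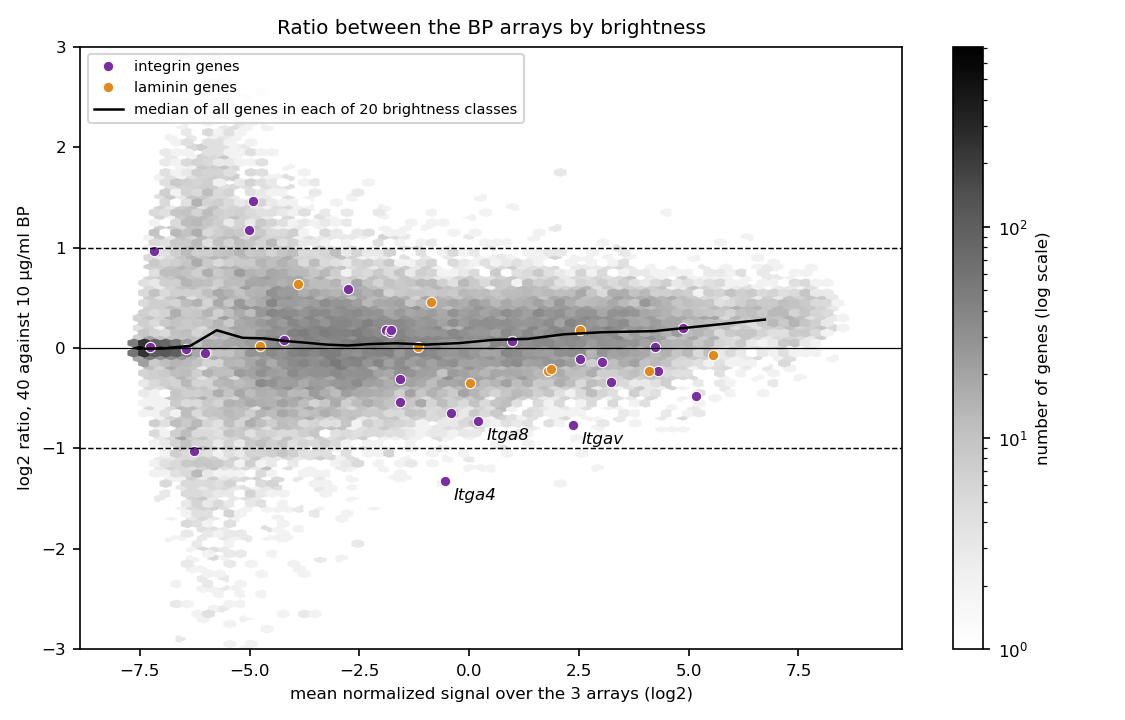
Log2 ratio of BP40 to BP10 against the mean normalized signal over the 3 arrays for all genes (grey, darker where more genes lie), 26 integrins (purple) and 10 laminins (orange), with the median of all genes in 20 brightness classes as a line. Genes beyond a log2 ratio of 3 either way are outside the panel; Itga4 at -1.32 is the only member called, and Itgav (-0.77) and Itga8 (-0.73) come next among the bright members.

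The partners of laminin were measured with them. Of 22 genes for laminin network proteins and laminin receptors other than integrins, 1 was up-regulated and 1 down-regulated with BP10, and with BP40 0 and 2 were. That is 9.09% called at each dose, beside 12.9% and 11.5% of all genes. Of all genes at 0 or above on the control array, 2.93% and 2.31% were called. The list was not matched for brightness. Their median log2 ratio was -0.15 at BP10 and -0.10 at BP40. Nid1, the nidogen that links laminin to collagen IV, had log2 signals of 5.37, 5.09 and 4.84, and Fbln2 had 7.41, 7.39 and 7.31. Egfl6, an extracellular matrix ligand, had -3.19, -7.33 and -5.43, above background on the control array only, and was called lower at both doses. Nid2, the second nidogen, was called lower at BP40 only, at 1.69, 1.60 and 0.64, and is named after its values were seen. Ntn4, a netrin that breaks up laminin networks, was the 1 called higher at BP10, at -2.97, -1.95 and -3.36, and was called lower on BP40 against BP10. Rpsa, the ribosomal protein also known as the laminin receptor, was higher on BP40 than on BP10, at 7.58, 7.02 and 8.16.

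Among 33 integrin ligands other than collagens and laminins, 1 was up-regulated and 4 were down-regulated with BP10, and with BP40 0 and 3 were. That is 15.2% called at BP10 and 9.09% at BP40, beside 12.9% and 11.5% of all genes. Of all genes at 0 or above on the control array, 2.93% and 2.31% were called. The ligands were not matched for brightness. Fn1, fibronectin, had log2 signals of 7.47, 7.30 and 7.62, Thbs1 had 7.51, 7.17 and 7.30, and Ctgf had 6.88, 7.27 and 7.12. These 3 stayed within 2-fold. Tgfbi, a matrix protein induced by TGF-beta, fell at both doses, at 4.48, 2.94 and 3.33, and Fga, the fibrinogen alpha chain, at -1.26, -3.03 and -2.55. Npnt, the nephronectin that Itga8 binds, was higher on BP10 (-2.45, -1.11 and -2.49) and lower on BP40 against BP10. Vcam1, a ligand of the Itga4 receptor, had 4.51, 4.18 and 3.88 and was not called. It is named here for its link to Itga4.

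Of 45 activators and adaptors of integrins, 0 were up-regulated at either dose, 2 were down-regulated at BP10 and 1 at BP40, and 43 were above background on all 3 arrays. That is 4.44% and 2.22% called, beside 12.9% and 11.5% of all genes. Bright genes are called less often: at 0 or above on the control array, 2.93% and 2.31% of all genes were called. The list was not matched for brightness. Zyx, Flna and Cd81 had log2 ratios between -0.16 and 0.13. Itgb1bp2, the muscle protein melusin, was lower at both doses, at -3.53, -4.67 and -4.80. The median over these 45 genes was -0.04 (BP10) and -0.10 (BP40) on the log2 ratio scale. Of 10 fibroblast markers, 10 were above background on all 3 arrays, with a summed linear signal of 1293, 917 and 972 on the control, BP10 and BP40 arrays. Their median log2 ratio was -0.66 at BP10 and -0.63 at BP40, and Lum, the matrix proteoglycan lumican, was called lower at both doses (log2 ratios -3.19 and -2.21). Of 8 endothelial markers, 6 were above background on each array, with summed signals of 12.1, 9.65 and 12.9, and of 6 Schwann cell and neural markers, 6 were, with 12.0, 7.54 and 10.3. Most of these sums came from 1 gene each, Kdr (log2 signals 3.01, 2.66 and 3.05) and Tubb3 (3.16, 2.45 and 2.86). The endothelial Cdh5 and Tie1 were above background on no array.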

How the data were processed

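Total RNA of 3 MEF cultures was hybridized to Agilent G3 mouse arrays with 1 colour. The authors deposited the scanner output of Feature Extraction 10.5.1.1, whose processed intensity per spot is background-subtracted and not scaled between arrays; on BP10 and BP40 the authors' software also divided it by the deposited detrending surface, a ratio near 1 at each spot, and on the control array it did not. The series table repeats these values. The depositors' own GeneSpring normalization is not given in the sources used here, and 0 columns were left unmapped.

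From these values, log2 intensity minus the 75th percentile of non-outlier gene spots was taken on each array, and spots of an oligo were averaged. A gene with several oligos was read by that detected on most arrays, ties going to the brightest. Names are those in the BP arrays' files; 46 of the 52 member oligos carry the same RefSeq symbol by accession. Precision is limited by the number of arrays. Named with signals or log2 ratios were members called at 2-fold, members at 0 or above on the control array and genes whose oligos disagree. Several members outside these rules were given too, such as Itga3, Itgb4, Itgb2 and Lama1. Left out was 1 member, which is counted but not reported by itself here or drawn. The members, the partner and marker lists and the motifs were chosen with earlier results of these data known. Python 3.11.15, numpy 2.4.6, pandas 2.3.3 and matplotlib 3.10.9 were used, with limma 3.58.1 in R 4.3.3 for 2 of the alternatives (quantile and normexp). Calling was tested on simulated data. The Itgbl1 gene, which encodes no subunit, and the binding proteins Itgb1bp and Itgb3bp were left out of the members.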

Additional observations from a re-analysis of the deposited data

How the results depend on the processing

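No paired analysis was possible because there is a single array for every condition. The share of all genes called in each setting is given in brackets. For BP10 against control, the 4 integrin and laminin genes called at 2-fold became 1 with the normexp background correction (4.11%). They became 2 with the oligo above background on both arrays (9.67%), 8 at 1.5-fold (28.5%) and 2 at 3-fold (2.64%). Of the 8, Itga1 (log2 ratio 0.75) and Itga5 (0.79) were higher and the others lower. For BP40 against control, the 5 called genes became 3 with quantile normalization (9.38%), 2 with normexp (3.07%) and 8 without a filter on dim oligos (20.4%). They became 3 with the oligo above background on both arrays (8.89%), 3 at 3-fold (2.32%) and 3 with the brightness trend subtracted (8.46%). Without the filter, Itgb2l, dim on both arrays, counted as higher (log2 ratio 1.51). For BP40 against BP10, the 1 called gene became 4 without a filter on dim oligos (9.71%), 6 at 1.5-fold (13.3%) and 0 at 3-fold (1.13%). Of these, Itga2 (log2 ratio 1.18) and Itgb6 (1.47) were higher without the filter, and Itgb7 (0.59) and Lamc3 (0.64) at 1.5-fold. The others were lower. Itgal reversed: with the median of its oligos its log2 ratio was 0.52 at BP10 and 0.44 at BP40, and with the gene names of the control file, which leave its cDNA oligo out, 0.78 and 1.05. The normexp offset of 50 draws the ratios of dim oligos toward 0. With quantile normalization, 50.8% of the BP10 calls over all genes and 54.4% of the BP40 calls were higher than control, in place of 20.2% and 21.7%, with normexp 32.9% and 46.3%, and with the brightness trend subtracted 67.9% and 62.4%. Between the doses, 41.1% were higher on BP40 with the 75th percentile taken over oligos above background on all arrays, in place of 51.4%. Quantile normalization moved the median log2 ratio of all genes at BP10 by 0.17, and normexp moved it by 0.14 at BP10 and 0.18 at BP40, and subtracting the trend sets it to 0 by construction. With the trend subtracted at BP10, 3 members were called lower, and Itgad counted as higher, since the trend carried its bound (-0.17) past 0 while its measured log2 ratio stayed negative (-1.06). That count is no rise of Itgad. Without a filter on dim oligos the 4 genes at BP10 became 6 (22.5% of all genes called). At BP40 the family medians ranged from -0.29 to -0.08 (integrins) and from -0.32 to -0.20 (laminins). The other counts of called genes stayed within 1.5 times, as did the 13 of 17 bright members lower on BP40 than on BP10, which ranged from 13 to 15. Detrending of the control array, no detrending, the naming by the control file and the exclusion of repeat oligos were added after the data were seen. Itgae, Itgb6 and Lamb3 stood near background, where signal limits what can be seen. The ratios of Itgae and Itgb6 with BP are bounds only, and those of Lamb3 are measured against dim signals.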

Other observations

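The annotation differs between the deposited scanner files. The control array's file, which is older, gives 2 member oligos other names than the BP arrays' files, 1 of Itga6 and the cDNA oligo of Itgal. Of the 52 member oligos, 47 have an accession found among RefSeq transcripts. The Itga9 spot on BP10, marked as an outlier, had an intensity of 3585, beside 1120 on the control array and 466 on BP40, and was left out.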
